A study of Mus musculus with 53 samples.

Results

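The genes described here encode the nuclear part of the mitochondrial respiratory chain: 86 protein-coding genes out of 53379 in the count tables, taken by their symbols (Nduf with a, b, c, s or v, Sdha to Sdhd, Uqcr, Cyc1, Cox4 to Cox8 and Atp5), without Ndufaf assembly factors and without pseudogenes. They comprise 38 subunits of complex I, 4 of complex II, 9 of complex III, 18 of complex IV and 17 of complex V. No measured value entered this rule of symbols, though earlier results of these data were known when the members were chosen. A few symbols the rule takes are not plain subunits: Cox7a2l is a supercomplex assembly protein, Atp5s a coupling factor, and Ndufa4, counted here under complex I by its symbol, is now assigned to complex IV.

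The study compared gene expression in 2 hypothalamic nuclei, the paraventricular (PVN) and the arcuate (ARC), between C57BL/6 mice lacking the paternal copy of Nnat (Nnat+/-p) and wildtype littermates (Nnat+/+). Nuclei were cut out by laser capture, and total RNA was sequenced as stranded, ribosomal RNA-depleted libraries of single 50-base reads. Of 53 libraries, 49 were used: 3 had very low totals, and library 32, labelled as male ARC of Nnat+/-p on HFD but deposited in the PVN table, was put in no group. The Nnat allele carries lacZ, lacks exons 2 and 3, is a germline deletion not limited to a cell type, and is expressed from the paternal chromosome only. On chow, Nnat+/-p mice were divided by body weight into non-obese and obese. Female PVN libraries, all on chow, were 4 Nnat+/+, 3 non-obese and 3 obese Nnat+/-p. Male PVN libraries were 3 Nnat+/+, 3 non-obese and 4 obese Nnat+/-p on chow, with 6 Nnat+/+ and 3 Nnat+/-p on a 45% high-fat diet (HFD). Male ARC libraries were 2 Nnat+/+, 4 non-obese and 4 obese Nnat+/-p on chow, with 6 Nnat+/+ and 4 Nnat+/-p on HFD. Male mice were 13 to 14 weeks old. The labels name no animals, but the body weights they give recur between male PVN and male ARC libraries, so many of these libraries may come from the same mice and the nuclei are not independent. Libraries 39 and 40, both non-obese Nnat+/-p ARC, carry the same weight of 34.3 g, which only 1 PVN library (19) has, and may be 1 mouse. They are counted as 2 here, and with their counts summed the same members were called. Libraries 1 and 2, both female Nnat+/+, also share a weight (24.1 g). On HFD 2 weights go with different genotypes in the nuclei: 42.9 g is Nnat+/+ in PVN (library 24) and Nnat+/-p in ARC (library 51), and 43.9 g is Nnat+/-p in PVN (library 30) and Nnat+/+ in ARC (library 44). Nnat itself was at 464.8 CPM in library 24 and 340.5 in library 44, against 3.77 in library 30 and 3.52 in library 51, as their genotype labels have it.

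The respiratory chain passes electrons from NADH and succinate to oxygen through complexes I to IV, and complex V uses the resulting proton gradient to make ATP. A small number of core subunits are encoded by mitochondrial DNA and made inside the organelle, whereas the subunits described here are transcribed in the nucleus, translated in the cytosol and imported. Neurons depend on this machinery for most of their ATP, and several complex IV and V subunits exist as tissue isoforms, with one form general and another tied to muscle, testis or lung.

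Many of these genes are short and have processed pseudogenes, copies of the spliced mRNA elsewhere in the genome, so a 50-base read may match several places. Coding sequences from GRCm38 are shown for a pair of complex IV genes at the extremes and for Uqcrh, the member called in both ARC comparisons of diet. Capitals mark bases covered by at least 1 window of 50 bases of the transcript, including windows that begin before or end after the coding part, found in no other annotated gene, and lower case marks bases at which every window also occurs elsewhere. Cox7c lies on the minus strand of chr13:86044816-86046904, Cox8a on the minus strand of chr19:7215153-7217616, and Uqcrh on the minus strand of chr4:116066965-116075071.
Cox7c coding sequence: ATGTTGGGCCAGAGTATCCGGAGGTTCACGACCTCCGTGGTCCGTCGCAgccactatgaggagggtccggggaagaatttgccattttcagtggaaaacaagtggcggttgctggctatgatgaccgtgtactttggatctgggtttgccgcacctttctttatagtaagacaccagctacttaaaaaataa
Cox8a coding sequence: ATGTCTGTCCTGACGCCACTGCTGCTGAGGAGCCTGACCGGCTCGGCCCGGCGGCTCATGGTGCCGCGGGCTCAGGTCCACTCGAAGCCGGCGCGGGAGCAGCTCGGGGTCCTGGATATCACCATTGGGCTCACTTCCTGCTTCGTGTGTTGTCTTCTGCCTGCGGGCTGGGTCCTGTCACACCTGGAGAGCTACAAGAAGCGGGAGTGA
Uqcrh coding sequence: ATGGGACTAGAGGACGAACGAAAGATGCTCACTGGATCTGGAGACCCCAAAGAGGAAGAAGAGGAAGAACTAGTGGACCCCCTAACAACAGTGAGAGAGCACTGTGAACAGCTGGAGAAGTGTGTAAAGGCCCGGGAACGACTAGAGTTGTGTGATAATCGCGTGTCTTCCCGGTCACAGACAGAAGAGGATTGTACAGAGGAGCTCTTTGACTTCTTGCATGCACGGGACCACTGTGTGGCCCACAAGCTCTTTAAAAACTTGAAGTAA
All windows lying within the coding part of Cox7c occurred in other annotated genes, which were 3 pseudogenes, so its capitals come from windows that begin before the start codon. Cox8a shared no window, and Uqcrh shared 17.9% of its coding windows with 1 pseudogene while every base still fell in a window of its own.

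Over all 86 members, 15 (17.4%) shared at least 50% of their coding windows with another annotated gene, against 12.0% of 21805 nuclear protein-coding genes. Members were also short, with a median coding length of 409.5 bases against 1161. Levels were compared between genes as CPM per kilobase of exon, averaged over all 49 libraries. CPM are counts per 1000000 of the library total after scaling. The exon length was that of all annotated exons of a gene merged, so a gene with many annotated exon bases gets a lower value. The 6 members sharing at least 99% of coding windows were low throughout. Atp5g1, Atp5g2, Atp5l, Cox7c, Ndufab1 and Ndufb4 lay between 0.282 and 1.98 CPM per kb, with a median of 0.818. Without division by length they lay between 0.472 and 5.23 CPM. The 9 members sharing 50% to under 99% had a median of 7.37 CPM per kb, and the 27 sharing some but under 50% a median of 22.1. The 44 members with no shared coding window had a median of 21.6 CPM per kb and ranged from 0.110 to 133.5. Cox5b, the zinc-binding subunit of complex IV, was not low at 43.9 CPM per kb although it shared 61.5% of coding windows. How reads matching several places were counted is not given in the sources used here, so the part of shared sequence in these low levels was not tested.

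**Figure D1:**
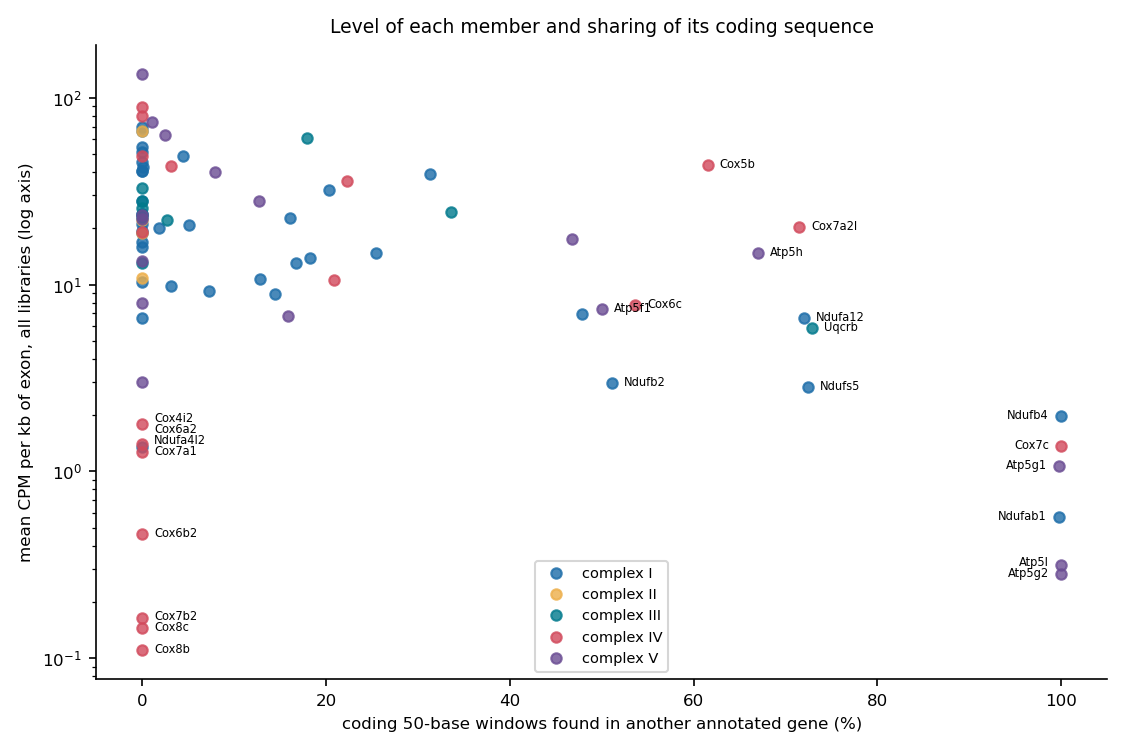
Mean level of each of the 86 members over all libraries (CPM per kb of exon, log axis) against the percentage of its coding 50-base windows found in another annotated gene, coloured by complex. The 6 members at the far right, with at least 99% of windows shared, all lie between 0.282 and 1.98 CPM per kb, and the low members at the far left are tissue isoforms such as Cox8b at 0.110.

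Within each complex the levels spanned a wide range. The orders given here are those of CPM per kb and depend on the exon length used. In complex I the highest was Ndufa5, an accessory subunit of the arm that takes up NADH, at 69.8 CPM per kb, and the lowest was Ndufab1, the mitochondrial acyl carrier protein, at 0.571. Ndufab1 has 6883 annotated exon bases, and without division by length it was at 3.93 CPM, above Ndufa4l2 at 1.47. In complex II, Sdha, the flavoprotein that oxidises succinate, was at 66.3 and Sdhc, a membrane anchor, at 10.8. Without division by length Sdhd, at 23.4 CPM, lay under Sdhc, at 35.2. In complex III, Uqcrh, the hinge protein next to cytochrome c1, was at 60.7 and Uqcrb at 5.83, with 72.9% of the coding windows of Uqcrb shared. Complex IV ran from Cox8a at 88.8 to Cox8b at 0.110. Complex V ran from Atp5a1, the alpha subunit of the catalytic head, at 133.5 to Atp5g2 at 0.282. Complex medians were 19.1, 20.5, 24.4, 9.19 and 14.8 CPM per kb in the order I to V.

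The general isoform was far higher than its tissue-restricted relative in each complex IV family. Cox4i1 was at 79.6 CPM per kb and Cox4i2, the lung and hypoxia form, at 1.79. Cox6a1 stood at 36.0 against 1.39 for Cox6a2, the heart and muscle form. Cox6b1 stood at 48.9 against 0.462 for Cox6b2, a testis form. In the Cox7a family, Cox7a2 and Cox7a2l were at 19.2 and 20.4 and Cox7a1, the heart and muscle form, at 1.26. Cox7b was at 43.3 against 0.163 for Cox7b2, and Cox8a at 88.8 against 0.110 for Cox8b and 0.145 for Cox8c. None of the low forms in these families shared a coding window with another gene. Ndufa4 was at 15.8 and its relative Ndufa4l2 at 1.34. The Atp5g genes encode the same mature c subunit of the rotor: Atp5g3, with no shared coding window, was at 22.4, and Atp5g1 and Atp5g2, with nearly all windows shared, were at 1.06 and 0.282, and the part of sequence sharing in this order was not tested.

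Precision followed the counts. At least 10 counts were found in every library for 59 of 86 members, and in under 50% of libraries for 11 members (Ndufa4l2, Cox4i2, Cox6a2, Cox6b2, Cox7a1, Cox7b2, Cox7c, Cox8b, Cox8c, Atp5g2 and Atp5l). The members with the largest spread of log2 CPM between libraries of a group were Ndufa4l2 (SD 1.28), Cox7c (1.18), Cox6a2 (1.18), Cox4i2 (1.17) and Cox7a1 (1.15), all of them low. Among the 59, the SD ran from 0.172 for Sdha and 0.220 for Cox5b to 0.519 for Ndufs8 and 0.568 for Ndufa7. One female non-obese Nnat+/-p library, library 10, had only 61 members with 10 counts and 19 at 0, against 3 to 9 at 0 in every other library.

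The promoters of the members were searched for short motifs of 3 factors known to drive nuclear genes of the respiratory chain. A RefSeq window from 250 bases before to 50 bases after the start was given on GRCm38.p6 for 69 of the 86 members and for 17492 protein-coding genes in all. The NRF1 letters CGCATGCG were found in 9 members (13.0%) against 2.77% of all genes. The ETS letters CCGGAAG, bound by the factor GABP among others, were found in 16 (23.2%) against 12.9%, and the YY1 letters AANATGGCG in 10 (14.5%) against 3.64%. Both strands were searched, a gene with several motifs was counted under each, and at least 1 of the 3 motifs was in 29 members (42.0%) against 17.7% of all genes. Of the 10 windows with the YY1 letters, 7 belonged to complex I and 3 to complex V, while the 9 with the NRF1 letters were spread over complexes I, III, IV and V. These shares are descriptions and were not tested. A match is a description of letters and no evidence of binding. The 250 bases before the start are shown for Uqcrh, since it was called between diets, and for Cox6a1, which held both NRF1 and ETS letters. Capitals mark the motifs; the ETS letters read CTTCCGG where they lie on the other strand. The Uqcrh stretch is chr4:116075071-116075320 and the Cox6a1 stretch chr5:115348959-115349208, both on the minus strand.
Uqcrh upstream: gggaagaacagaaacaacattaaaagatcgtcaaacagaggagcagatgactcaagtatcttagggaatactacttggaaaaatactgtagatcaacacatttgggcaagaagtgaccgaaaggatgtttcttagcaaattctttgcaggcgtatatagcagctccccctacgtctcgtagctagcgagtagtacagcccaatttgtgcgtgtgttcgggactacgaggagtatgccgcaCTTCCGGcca
Cox6a1 upstream: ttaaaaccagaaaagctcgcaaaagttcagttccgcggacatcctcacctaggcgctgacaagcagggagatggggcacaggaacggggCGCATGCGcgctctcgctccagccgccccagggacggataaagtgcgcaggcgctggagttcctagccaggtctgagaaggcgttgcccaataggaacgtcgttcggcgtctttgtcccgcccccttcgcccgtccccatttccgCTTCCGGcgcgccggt

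Before the comparisons, the libraries were checked. Totals ran from 1479953 to 30228973 counts. Nnat itself lay between 224.1 and 584.3 CPM in 21 Nnat+/+ libraries and between 0.268 and 13.7 CPM in 28 Nnat+/-p libraries, without overlap. The summed level of 6 PVN neuron genes (Avp, Oxt, Sim1, Crh, Trh and Otp) was 18.2 to 131.0 CPM in ARC libraries and 176.2 to 4375 CPM in PVN libraries, with 1 exception: library 15, a male Nnat+/+ PVN library on chow, stood at 35.0, and its ARC neuron genes at 207.7 were the highest of any PVN library. Library 24, a male Nnat+/+ PVN library on HFD, was the next lowest of the PVN libraries. Library 15 is 1 of only 3 male PVN Nnat+/+ libraries on chow, so values without it are given for some, not all, of the members named in comparisons that use it. In such tissue samples, fewer cells of a type and less RNA per cell cannot be told apart.

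Together the members made up 0.227% to 0.564% of all counts in a library. Their summed level was 3698 to 5426 CPM in female PVN, 2707 to 4385 CPM in male PVN and 2588 to 3444 CPM in male ARC. Each of these was deposited as a table of its own, so sex, nucleus and table cannot be told apart, and no comparison was made across them. For complex I the mean level per member in male PVN was 35.3 ± 5.53 CPM (SD, n = 3) in Nnat+/+, 30.6 ± 3.75 (n = 3) in non-obese and 34.7 ± 5.23 (n = 4) in obese Nnat+/-p on chow, and 37.9 ± 2.53 (n = 6) in Nnat+/+ and 38.8 ± 0.496 (n = 3) in Nnat+/-p on HFD. In male ARC it was 30.8 ± 3.54 (n = 2), 30.4 ± 3.89 (n = 4) and 30.8 ± 0.758 (n = 4) on chow in the same order, and 28.5 ± 1.63 (n = 6) and 30.5 ± 0.683 (n = 4) on HFD. In male PVN the 3 HFD Nnat+/-p libraries, at 38.3 to 39.3 CPM, lay above the 3 non-obese Nnat+/-p libraries on chow, at 27.0 to 34.5, while in male ARC every library fell between 24.6 and 33.3 CPM. The 3 male PVN Nnat+/+ chow libraries stood at 31.0, 33.3 and, in library 15, 41.5 CPM. The other complexes are shown in the plot of complex means.

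**Figure D2:**
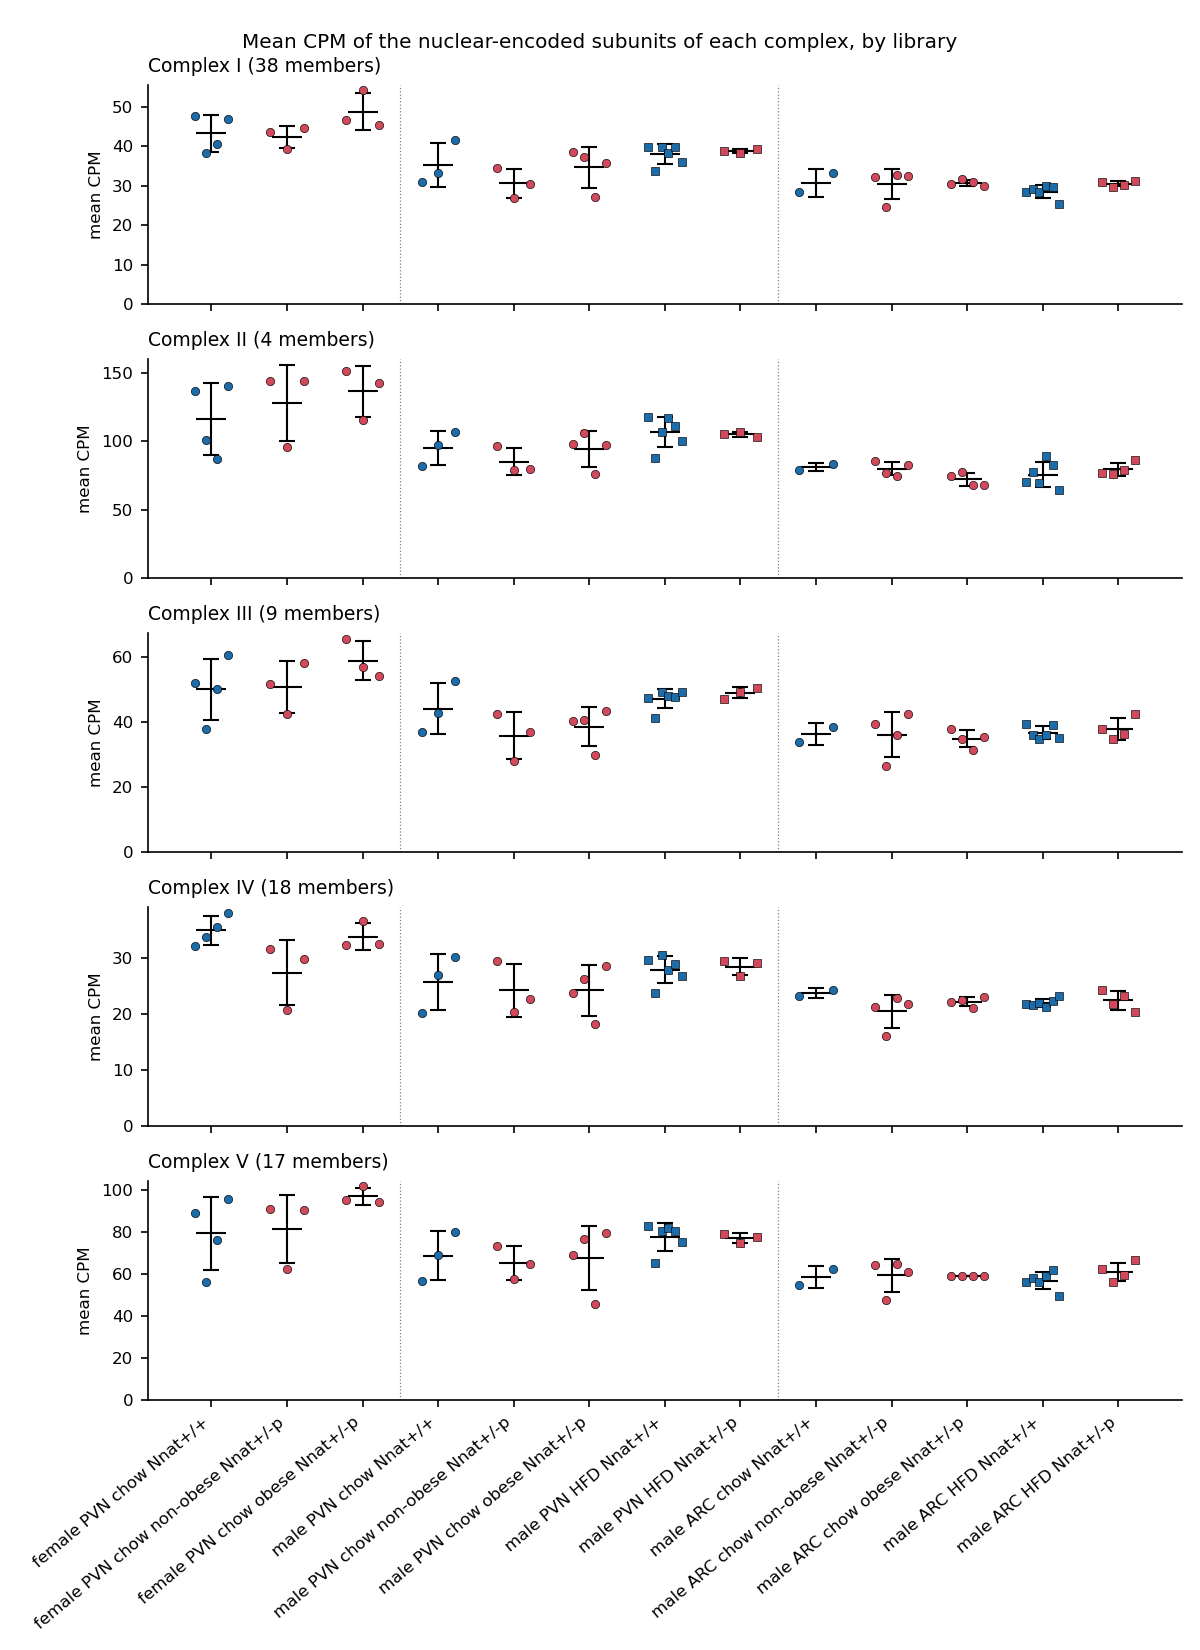
Mean CPM per member of complexes I to V in each of the 49 libraries (points), by group, with the group mean and SD (bars); blue is Nnat+/+, red Nnat+/-p, circles chow and squares HFD, and dotted lines separate the 3 tables. Within a table the points of every chow group overlap those of another group in each complex, and the lowest complex I value, 24.6 CPM, is a male ARC non-obese Nnat+/-p library.

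The first question was whether loss of paternal Nnat, with or without obesity, changed these genes. Across 11 comparisons of genotype or weight class, none of the 76 to 83 members tested passed a BH-adjusted p under 0.25 (edgeR quasi-likelihood test). DESeq2 and limma voom called none either. The smallest adjusted p of any member was 0.999, and 0 to 3 members per comparison had an unadjusted p under 0.05. Calls over all genes were few as well, at 0.0256% of genes tested for obese Nnat+/-p against Nnat+/+ in male PVN on chow, 0.0128% for non-obese against Nnat+/+ and 0% for obese against non-obese. The shares were 0.0129%, 0.00646% and 0% in female PVN and 0.0205%, 0.0136% and 0.00682% in male ARC in the same order, and 0.00569% in PVN and 0.0127% in ARC on HFD. At an unadjusted p under 0.05 in edgeR there were 0, 1 and 0 of 79 members in male PVN on chow, where 3.52%, 2.56% and 1.66% of all genes reached it (obese and non-obese against Nnat+/+, then obese against non-obese). In the same order there were 0, 2 and 2 of 80 members in female PVN (3.18%, 4% and 3.06% of all genes) and 0, 1 and 3 of 76 in ARC (2.59%, 1.9% and 4.25%). On HFD there were 0 of 83 in PVN (0.99%) and 2 of 78 in ARC (4.54%). The members' shares were thus near or below the background in each. Median log2 fold changes of the members lay between -0.16 and 0.26, against -0.09 to 0.06 for all genes tested. These results do not show that the members were equal: for the 59 well-counted members the median standard error of a log2 fold change was 0.332 to 0.357 in male PVN on chow, 0.442 to 0.474 in female PVN, 0.223 to 0.275 in ARC on chow, 0.251 in PVN on HFD and 0.189 in ARC on HFD.

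**Figure D3:**
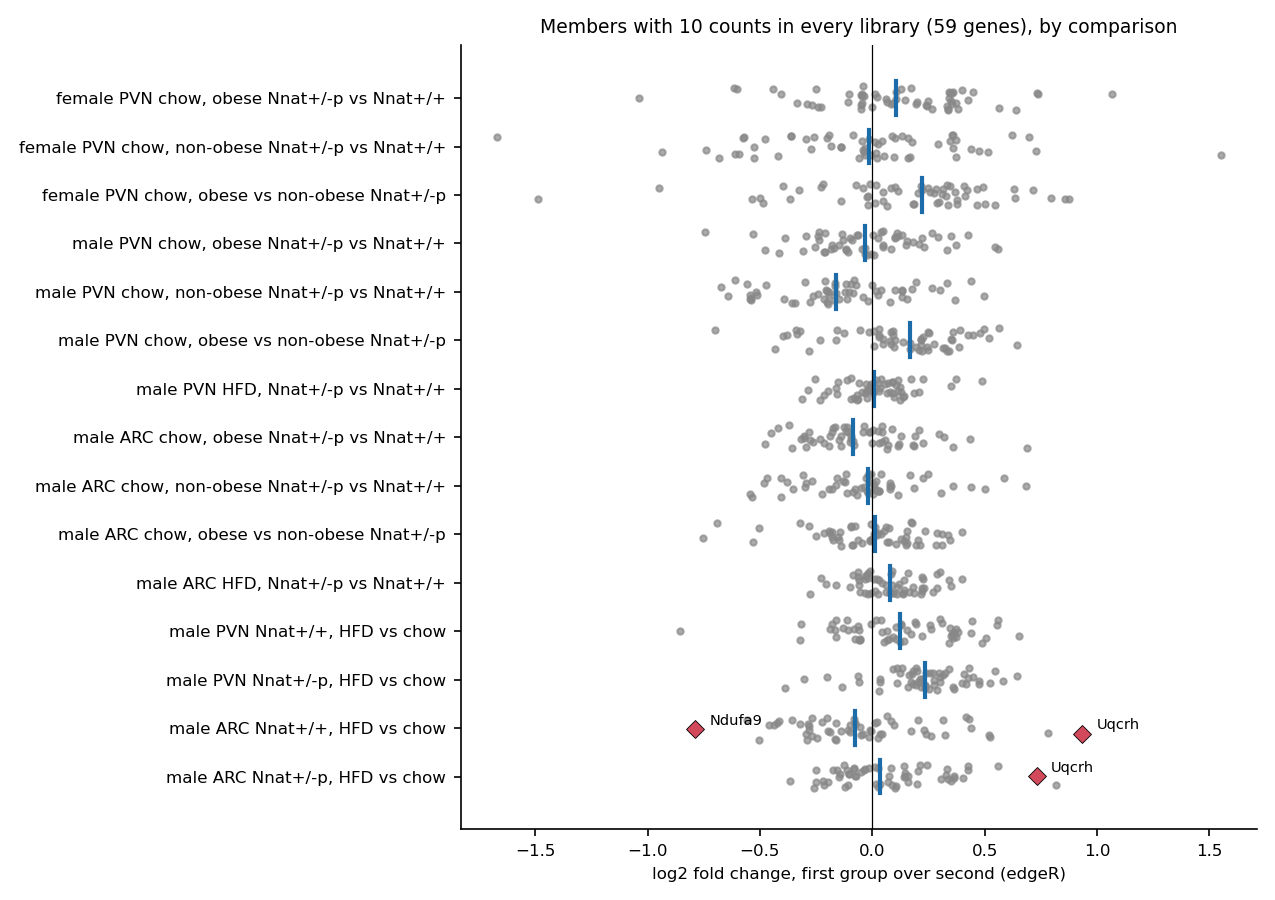
Log2 fold changes from edgeR of the 59 members with at least 10 counts in every library, in 15 comparisons; each point is a gene, blue bars are medians, and red diamonds are members past a BH-adjusted p of 0.25. The called members are Uqcrh (0.93 and 0.73) and Ndufa9 (-0.79), in ARC comparisons of diet only.

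The members nearest to a call in each direction differed from one comparison to the next, and none of those named in the following passed. In male PVN on chow, obese Nnat+/-p mice had Uqcrc1, a core protein of complex III, at 74.9 ± 13.7 CPM (SD, n = 4) against 108.8 ± 27.7 in Nnat+/+ (n = 3), and Ndufa1, an X-linked complex I subunit, at 13.3 ± 5.53 against 22.4 ± 3.34. In the other direction were Ndufab1 (log2 fold change 1.76, SE 1.02) and Sdhc (0.55, SE 0.32). Non-obese mice had Ndufa5 at 50.8 ± 8.27 CPM against 77.8 ± 12.7 (n = 3 each), without overlap, and an unadjusted p of 0.0346 in edgeR. Atp5j (-0.54) was the next lower member. Other lower members, among them Ndufv2 (-0.52) and Uqcrc1 (-0.54), had smaller p-values than the leading higher ones, Atp5o (0.50) and Ndufb11 (0.44). Between obese and non-obese mice the leading members were Ndufa5 (0.52), Ndufv2 (0.45), Cox5b (-0.43) and Ndufa1 (-0.70). Library 15 had the highest value of its group for Uqcrc1 (135.1 CPM), Ndufa1 (25.9) and Ndufa5 (92.0). Without it no member passed either. Against Nnat+/+, the log2 fold change of Uqcrc1 in obese mice went from -0.53 to -0.34, that of Ndufa1 from -0.74 to -0.61 and that of Sdhc from 0.55 to 0.88, and that of Ndufa5 in non-obese mice from -0.61 to -0.47. The median of the members went from -0.03 to 0.10 in obese and from -0.16 to -0.01 in non-obese mice.

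In female PVN the leading members were less precise. Ndufa7, a complex I accessory subunit, was at 11.4 ± 6.65 CPM in non-obese Nnat+/-p (n = 3) and 36.3 ± 17.4 in Nnat+/+ (n = 4), with an unadjusted p of 0.0172 in edgeR. Ndufa1 was at 53.6 ± 43.4 and 18.3 ± 9.64 CPM in the same groups. Uqcrfs1, the Rieske iron-sulfur protein, had a log2 fold change of 0.62 and Cox6c one of -0.94. For obese mice against Nnat+/+ these were Ndufc2 (1.07), Ndufv2 (0.74), Ndufa7 (-1.04) and Cox7c (-2.95, with SE 2.04 from very few counts). For obese against non-obese they were Ndufs1 (0.86), Ndufb7 (0.88), Ndufa1 (-1.49) and Ndufa11 (-0.95). Library 10, with its many members at 0, is among the 3 non-obese libraries. Without it, no member passed either, but the fold changes of the members named here are not given without it.

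In male ARC on chow the lowest unadjusted p belonged to Atp5d, the delta subunit of complex V. It was at 41.7, 30.1, 31.7 and 25.8 CPM in the 4 obese Nnat+/-p libraries and at 47.1, 53.3, 66.5 and 41.1 CPM in the 4 non-obese ones. The groups met, the lowest non-obese value lying just under the highest obese one. The log2 fold change was -0.69 (SE 0.21), with an unadjusted p of 0.0036 and an adjusted p of 0.999 in edgeR. Atp5mpl, a small membrane subunit of complex V, was at 10.8 ± 1.45 against 18.6 ± 9.46 CPM (n = 4 each), and Cox4i1 (0.31) and Sdhc (0.34) led in the other direction. Against Nnat+/+ (n = 2), non-obese mice were led by Atp5s (1.94), Ndufs4 (0.68), Cox8a (-0.54) and Sdhc (-0.48), and obese mice by Ndufs4 (0.69), Ndufs1 (0.36), Ndufb3 (-0.80) and Cyc1 (-0.48). Both of these comparisons use the same 2 Nnat+/+ libraries.

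On HFD no member passed between genotypes either. In ARC, Cox5b was at 51.9 ± 3.29 CPM in Nnat+/-p (n = 4) and 39.3 ± 6.02 in Nnat+/+ (n = 6), without overlap, with an adjusted p of 0.999 in edgeR. Cox7a2l was at 30.2 ± 10.3 and 42.6 ± 11.8 CPM, and Ndufb10 (0.29) and Sdhc (-0.28) were next in their directions. In PVN the leading members in each direction were Ndufa5 (0.35), Ndufa1 (0.49), Cox6a2 (-2.50, SE 2.03) and Cox7a1 (-1.93, SE 1.67). No member passed in the test of whether the genotype effect differed between diets, with 0% of all genes called in PVN and 0.0127% in ARC. An unadjusted p under 0.05 in edgeR was found for 4 of 83 members in PVN (3.85% of all genes) and 0 of 78 in ARC (3.83%). The leading interaction terms in each direction in PVN were Ndufa5 (0.70), Uqcrc1 (0.66), Ndufab1 (-1.19) and Cox4i2, whose term rests on 3 Nnat+/+ chow libraries with 0 counts. Without library 15 the first 3 were 0.56, 0.47 and -1.47. Without library 24 the genotype effect of Cox6a2 on HFD was -0.33 in place of -2.50. In ARC they were Cox5b (0.42), Cyc1 (0.54), Ndufs4 (-0.67) and Ndufs1 (-0.42).

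The second question was how libraries on HFD differed from those on chow. By the labels, every Nnat+/+ male on HFD weighed more than every one on chow, so diet and body weight cannot be told apart there. In ARC of Nnat+/+ males, Uqcrh rose and Ndufa9 fell on HFD, the only members of 78 tested to pass. The share of all genes called was 1.16%, or 0.495% higher and 0.66% lower, so 1 member in each direction was close to that background. At an unadjusted p under 0.05 in edgeR there were 3 members higher and 4 lower, against 8.54% of all genes in either direction. The median log2 fold change of the members was -0.03 against 0.02 for all genes.

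Uqcrh was at 36.3 and 49.2 CPM in the 2 Nnat+/+ ARC libraries on chow and ran from 66.9 through a median of 82.6 to 107.3 CPM in the 6 on HFD. Every HFD library was above both chow libraries. The log2 fold change was 0.93 (SE 0.28), with a BH-adjusted p of 0.239 in edgeR. Ndufa9, an accessory subunit at the junction of the complex I arms, was at 46.6 and 51.2 CPM on chow and ran from 21.4 through 28.1 to 37.6 CPM on HFD, again without overlap (log2 fold change -0.79, SE 0.22, adjusted p = 0.202 in edgeR). The members next in order were not called: Cox7a2l at 42.6 ± 11.8 CPM (n = 6) against 23.6 ± 2.97 (n = 2), and Uqcrc1 at 63.1 ± 6.85 against 89.4 ± 14.9. Both calls depended on few libraries. No member passed without library 33, 34, 44 or 46, or without libraries 44 and 51, whose weights conflict with PVN (Uqcrh 0.87, adjusted p = 0.410, and Ndufa9 -0.75, adjusted p = 0.389, in edgeR). Ndufa9 alone passed without library 47, and Uqcrh alone without library 49. With the low-count Nnat+/+ library put back, Uqcrh was at 0.45 (adjusted p = 0.595) and Ndufa9 at -0.44 (adjusted p = 0.570) in edgeR, and Cox5b and Ndufs7 were called in their place.

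The same diets were compared in ARC of Nnat+/-p males, a comparison added after the data had been seen. It shares no library with the one in Nnat+/+, but both came from the same fit of all ARC libraries, so they are not independent. Here and in PVN, the chow side of Nnat+/-p was the mean of the non-obese and obese groups. Uqcrh rose there too, as the only member of 78 to pass, against 2.98% of all genes called higher and 0.889% called lower (3.87% in all). At an unadjusted p under 0.05 in edgeR there were 5 members higher and 1 lower, against 10.2% of all genes. It ran from 21.7 through a median of 44.5 to 64.0 CPM in 8 chow libraries and was at 96.2, 75.5, 63.4 and 58.4 CPM in 4 HFD libraries. The ranges overlapped, the top chow library reaching past the lower HFD libraries. The log2 fold change was 0.73 (SE 0.20, adjusted p = 0.0588 in edgeR). Without library 50, the highest on HFD, it was 0.57 with an adjusted p of 0.503 in edgeR, and no member passed. Leaving out library 37, 38, 43, 51 or 53 instead gave 2 to 4 called members, Uqcrh always among them. The share of all genes called in those sets is not given beside these counts. Cox7a2l was at 30.2 ± 10.3 against 20.2 ± 2.88 CPM (log2 fold change 0.56, adjusted p = 0.268 in edgeR), not called. Ndufa9 was at 28.8 ± 3.29 against 37.3 ± 6.79 CPM (-0.37, adjusted p = 0.480 in edgeR), not called either, and Ndufc1 (-0.46) was next lower.

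In PVN no member passed on HFD in either genotype, although the median of the members lay above that of all genes. In Nnat+/+ the 83 members tested had a median log2 fold change of 0.12 against -0.03, with 5 members higher and 1 lower at an unadjusted p under 0.05 in edgeR (10.3% of all genes) and 1.43% of all genes called. In Nnat+/-p, again compared after the data had been seen, the median was 0.22 against -0.04, with 6 higher and 0 lower (7.05% of all genes) and 0.239% of all genes called. DESeq2 called 2 members in each, Cox4i2 and Ndufa1 in Nnat+/+ and Ndufa5 and Uqcrc1 in Nnat+/-p. Uqcrh had the same sign here, in libraries that may share mice with the ARC ones: in Nnat+/+ it was at 47.7, 55.6 and 76.2 CPM on chow and from 76.0 through 86.3 to 105.7 CPM on HFD (log2 fold change 0.56, adjusted p = 0.338 in edgeR). In Nnat+/-p it was 94.0 ± 16.8 CPM on HFD (n = 3) and 71.4 ± 15.7 on chow (n = 7), or 0.41 with an adjusted p of 0.701 in edgeR. The highest chow value in Nnat+/+ belonged to library 15, the one with PVN markers at the level of ARC libraries. Without libraries 15 and 24, 6 members passed as higher (Atp5c1, Atp5k, Ndufv1, Sdhc, Sdhd and Uqcrh), and without library 15 alone 3 did (Atp5c1, Sdhd and Uqcrh). The median of the members in Nnat+/+ was then 0.33 and 0.29 in place of 0.12. For these reduced sets and for DESeq2, the share of all genes called is not given here, so the counts have no background beside them.

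Other PVN members near a call differed in sign. Ndufa1 was at 21.8, 19.3 and 25.9 CPM on chow and from 7.84 through 12.4 to 17.5 on HFD in Nnat+/+, with an adjusted p of 0.329 in edgeR, and every HFD value was below every chow value. Cox4i2 was at 0 counts in all 3 Nnat+/+ chow libraries and from 0.373 to 3.44 CPM on HFD, so no fold is given. Atp5g3 (-0.32) was next lower. In Nnat+/-p, Ndufa5 was at 92.3, 92.0 and 101.8 CPM on HFD and from 42.5 through 59.1 to 84.1 on chow (log2 fold change 0.64, adjusted p = 0.297 in edgeR), and Uqcrc1 at 112.5 ± 8.32 against 74.7 ± 17.1. The groups did not overlap for either gene. Cox6b2 (-2.95, SE 2.03) and Atp5g1 (-0.84, SE 0.66) were lower, from few counts. Ndufa9, lower on HFD in ARC of Nnat+/+ mice, had a log2 fold change of 0.04 in both PVN comparisons, a value whose sign turned under other scalings and which was 0.33 in Nnat+/+ without library 15.

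**Figure D4:**
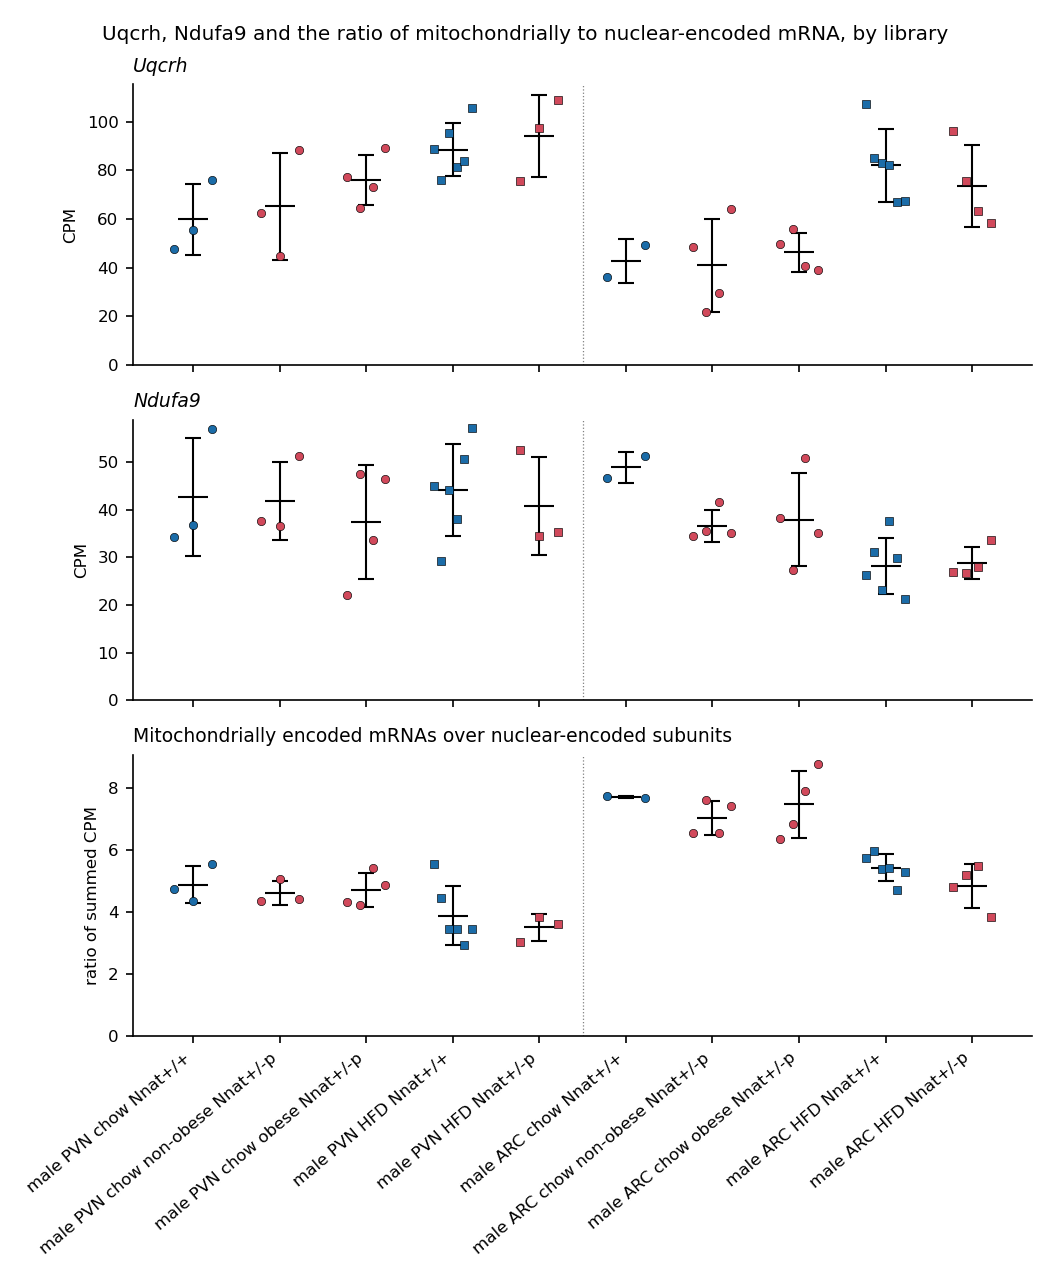
Uqcrh and Ndufa9 (CPM) and the ratio of summed mitochondrially encoded mRNA to summed members, in each male library, by group; bars are mean and SD, blue is Nnat+/+, red Nnat+/-p, circles chow and squares HFD. Uqcrh in ARC lies at 36.3 and 49.2 CPM in Nnat+/+ on chow and from 66.9 on HFD, and the ratio in ARC is 6.37 to 8.78 on chow and 3.85 to 5.98 on HFD.

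The mitochondrially encoded side of the chain was compared with the nuclear part. Of 13 mitochondrially encoded mRNAs, 8 could be tested in ARC. On HFD 4 of them (mt-Nd4, mt-Cytb, mt-Nd2 and mt-Nd5) were called lower in Nnat+/+, against 0.66% of all genes. In Nnat+/-p 6 (with mt-Co1 and mt-Nd1) were called lower, against 0.889% of all genes. The median log2 fold changes of these mRNAs were -0.54 and -0.50, and the smallest adjusted p was 0.144 and 0.0140 in edgeR. In Nnat+/+ none passed without library 33, 34 or 46, and with the low-count library put back none passed in either genotype. In PVN 0 of 7 were called, none with an unadjusted p under 0.05, and medians were -0.23 and -0.18. Over all genes in PVN, 1.43% (Nnat+/+) and 0.239% (Nnat+/-p) were called in either direction. The ratio of summed mitochondrially encoded to summed nuclear-encoded CPM does not depend on library scaling. In ARC it was 6.37 to 8.78 in 10 chow libraries and 3.85 to 5.98 in 10 HFD libraries, so the diets did not overlap. The member sums did overlap, at 2588 to 3444 CPM on chow and 2805 to 3412 CPM on HFD. In PVN the ratio was 4.21 to 5.55 on chow, with library 15 at the top and 5.43 the next, and 2.93 to 5.55 on HFD, where libraries 23 and 24 reached 5.55 and 4.45 and the other 7 stood at 3.85 or less. Several mitochondrial mRNAs are themselves copied in the nuclear genome: all coding windows of mt-Co2, mt-Atp6 and mt-Nd4l, and 62.2% of those of mt-Nd4, occur in another annotated gene.

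Neighbouring gene groups showed no called gene in any of the 4 diet comparisons: 44 tested assembly factors, 13 genes of the TCA cycle, 7 carriers of the inner and outer membrane or of electrons, and 11 regulators of mitochondrial biogenesis. At an unadjusted p under 0.05 in edgeR there were 3 assembly factors in PVN Nnat+/+, 4 in ARC Nnat+/+, 3 in PVN Nnat+/-p and 2 in ARC Nnat+/-p, 2 TCA cycle genes in ARC Nnat+/+, 1 carrier in PVN Nnat+/-p and no biogenesis regulator. The share of all genes was 10.3% in PVN Nnat+/+, 8.54% in ARC Nnat+/+, 7.05% in PVN Nnat+/-p and 10.2% in ARC Nnat+/-p. Cytosolic ribosomal protein genes, which like the members are short and have many pseudogenes, had 2 of 70 called higher in PVN Nnat+/+, 3 of 69 in ARC Nnat+/+, 0 of 70 in PVN Nnat+/-p and 9 of 69 in ARC Nnat+/-p, and none called lower. Over all genes, 0.495% were called higher in ARC Nnat+/+ and 2.98% in ARC Nnat+/-p. In PVN, 1.43% (Nnat+/+) and 0.239% (Nnat+/-p) of all genes were called in either direction.

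Some markers of cell types moved with diet in ARC. In Nnat+/+, 3 of 6 oligodendrocyte genes fell, their sum being 769.6 to 891.9 CPM on chow and 257.9 to 636.3 on HFD, and 1 neuron gene (Nefl) fell. Cartpt of the ARC neurons rose, as did Gfap of astrocytes and Col23a1 of tanycytes. In Nnat+/-p, 5 of 6 ARC neuron genes and 3 of 6 PVN neuron genes rose. The share of all genes called was 0.495% higher and 0.66% lower in Nnat+/+, and 2.98% higher and 0.889% lower in Nnat+/-p. The summed ARC neuron genes were 60.9 to 173.9 CPM on chow and 151.7 to 662.9 CPM on HFD over both genotypes, and the summed PVN neuron genes 18.2 to 57.9 and 48.9 to 131.0 CPM. No microglial or endothelial gene was called in either. In PVN, 1 ARC neuron gene and 1 neuron gene fell in Nnat+/+ and no marker was called in Nnat+/-p. There 1.43% and 0.239% of all genes were called, in the same order. What part the makeup of the captured tissue had in the values of Uqcrh, Ndufa9 or the ratio was not tested.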

How the data were processed

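The deposited files are 3 tables of raw gene counts (female PVN, male PVN, male ARC), whole numbers not normalised. Per the labels, the authors aligned reads to GRCm38 with STAR 2.5.0a; the counting tool, its strand setting and its treatment of reads matching several places are not given in the sources used here. Identifiers were matched to GENCODE symbols for 53274 of 53379 genes. Groups came from the labels; 3 libraries with low totals and 1 unassigned library were left out. Replicates are separate libraries, which the labels do not tie to animals.

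Each table was fitted by itself in R 4.3.3 with edgeR 4.0.16 (filterByExpr, TMM, quasi-likelihood test). Chow comparisons used the chow libraries, and HFD and diet comparisons all libraries of a nucleus. Calls were made at a BH-adjusted p under 0.25 over all genes tested. CPM values use TMM-scaled totals. Alternatives used DESeq2 1.42.0 and limma 3.58.1. Fits were tested on simulated data, where most of the changed genes were not called and, in some comparisons, the share of false calls was above the threshold, so a member that did not pass may still differ and a single call may be false. Window sharing was counted over GENCODE transcripts, and promoter windows came from RefSeq. Named were all called members, the 2 smallest p-values in each direction per comparison, the extremes of each complex, the isoform families and the 5 most variable members. Members and lists were chosen with earlier results of these data known.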

Additional observations from a re-analysis of the deposited data

Results flagged for a closer look

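In 7 of 63 checks, each of a measure in a group of 4 or more libraries, the highest or lowest library stood apart. The limit was the 95% critical value of Dixon's test. Chance flags about 1 in 20 independent checks, but these checks share libraries and are not independent. Library 39, a male ARC non-obese Nnat+/-p library on chow with the lowest total of all (1479953 counts), was low in summed members, at 2588 CPM against 3374 to 3397 in the other 3, and in the complex I mean, at 24.6 CPM against 32.2 to 32.6. In the same group, library 40 was high in Ndufa9, at 41.7 CPM against 34.4 to 35.6. Library 20, a male PVN obese Nnat+/-p library on chow, was low in summed members, at 2707 CPM against 3822 to 4009. On HFD, library 24 (male PVN Nnat+/+) was low in the complex III mean, at 41.3 CPM against 47.5 to 49.3, and its summed PVN neuron genes were also the lowest of the group at 176.2 CPM. Library 49 (male ARC Nnat+/+) was low in the complex I mean, at 25.4 CPM against 28.4 to 29.8, and library 53 (male ARC Nnat+/-p) was high in Ndufa9, at 33.7 CPM against 26.8 to 27.9. The causes were not tested.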

How the results depend on the processing

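The number of called members was 0 in the comparisons of genotype and weight class under every alternative run, except that 1 (Atp5j2) was called for obese against Nnat+/+ in female PVN with all labelled libraries. The diet comparisons were less stable, and the share of all genes called under each alternative is not given beside these counts of members. In ARC Nnat+/+ the 2 calls became 0 at an adjusted p under 0.05 or without the libraries of conflicting weight (24, 30, 44 and 51), and 4 with DESeq2, with limma voom or with only the groups compared; leaving out a replicate gave 0 to 3. In ARC Nnat+/-p the 1 call became 0 at an adjusted p under 0.05 and 2 with DESeq2, with RLE size factors or with every gene of total count over 1, and 0 to 4 without a replicate. In PVN Nnat+/+ the count became 2 with DESeq2, 6 without libraries 15 and 24, and 0 to 3 without a replicate; in PVN Nnat+/-p it became 2 with DESeq2, 1 with limma voom, 1 without libraries 15 and 24, and 0 to 1 without a replicate. Signs turned for Ndufa9 in PVN Nnat+/+ (-0.016 with DESeq2, -0.016 with RLE, -0.070 to 0.33 without a replicate) and in PVN Nnat+/-p (-0.025 with DESeq2, -0.025 with RLE, -0.054 with voom, -0.17 to 0.16 without a replicate), Atp5g1 (0.018 with voom) and Cox6b2 (-6.45 to 0.23 without a replicate) in PVN Nnat+/-p, and Cox6a2 for genotype on HFD in PVN (0.13 without libraries of conflicting weight). The calls of mitochondrially encoded mRNAs in ARC Nnat+/+ fell from 4 to 0 at an adjusted p under 0.05, with all labelled libraries, and without libraries of conflicting weight, 33, 34 or 46, and to 1 without 44 or 48; those in Nnat+/-p fell from 6 to 0 with all labelled libraries. Without library 33 or 34 the lone ARC Nnat+/+ chow library is assumed to vary like the other groups. The causes were not tested. No paired analysis was possible because the replicate numbers are running library numbers that no groups share, and the weights that groups share link PVN to ARC, which were not compared. Depth limits the low isoforms, whose counts were under 10 in most libraries, and p-values measure the spread between libraries only.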
